A study of Mus musculus with 6 samples.

Results

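Genes of the striated muscle sarcomere were followed across 6 arrays of mouse embryonic pylorus. The set was a list of 40 genes that encode the filament, Z-disc and calcium-handling proteins of skeletal and heart muscle, together with enzymes of their energy supply and the myogenic regulators Myod1, Myog and Myf6. Probes were taken wherever the annotated symbol was on that list, whatever their values. Of the 40 genes, 38 had a probe (52 probes in all), and 35 passed the detection filter, among 16764 genes tested on the whole array. Myh2, a fast myosin heavy chain, and Neb, the nebulin of the thin filament, had no probe named here.

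The tissue was dissected at E18.5, shortly before birth, as the distal stomach with a narrow margin of gut on both sides of the pyloric narrowing. Embryos came from matings between heterozygous Bapx1 CRE/+ mice (Bapx1 is now named Nkx3-2) and were genotyped from yolk sac DNA. The arrays held embryos labelled knockout and their littermates labelled wildtype, with 3 embryos of each label and 1 embryo per CodeLink one-colour array. The leading digits of the animal codes were shared by 1 embryo of each label and were taken as the litter, which the labels do not state. This gave 3 litter pairs, numbered 1 to 3 and written below as knockout 1 and wildtype 1, and so on. The labels name no other allele or treatment. The files of pair 1 carry a batch name and another report year than those of pairs 2 and 3, and the sets are written as batch A and batch B. Whether extraction or hybridisation also differed between them is not stated.

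Striated muscle contracts when calcium, released from the sarcoplasmic reticulum through the ryanodine receptor, binds troponin C and lets myosin heads pull on actin. Fast, slow, cardiac and developing fibres build the same machine from different paralogs of myosin, troponin, actin and the accessory proteins, so that these transcripts mark fibre types. The muscle coat of the stomach is smooth muscle, whereas that of the mouse oesophagus is striated, and the regulators Myod1, Myog and Myf6 drive the skeletal muscle programme.

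The promoters shown are those of the 4 members with the largest absolute moderated t-statistic for knockout minus wildtype. None of these members passed limma's test, as described below. Each run is the 250 bases before the transcript start on the gene's own strand, from RefSeq, assembly GRCm38.p6, with E-boxes (CANNTG, the core letters bound by myogenic regulators and many other factors) in capitals. They are Mybpc1 at chr10:88605153-88605402 (minus strand), Mylpf at chr7:127211358-127211607 (plus strand), Tnnc2 at chr2:164779735-164779984 (minus strand) and Acta1 at chr8:123894776-123895025 (minus strand).
Mybpc1: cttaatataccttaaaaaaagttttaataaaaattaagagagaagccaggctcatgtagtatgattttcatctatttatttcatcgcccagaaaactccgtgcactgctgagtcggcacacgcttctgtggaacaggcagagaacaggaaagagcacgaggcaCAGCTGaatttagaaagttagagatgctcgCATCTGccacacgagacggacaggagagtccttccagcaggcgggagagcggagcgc
Mylpf: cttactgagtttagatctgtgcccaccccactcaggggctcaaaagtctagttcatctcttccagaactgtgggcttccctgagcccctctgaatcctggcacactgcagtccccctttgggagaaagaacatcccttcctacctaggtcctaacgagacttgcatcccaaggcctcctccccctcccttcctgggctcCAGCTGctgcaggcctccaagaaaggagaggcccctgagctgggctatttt
Tnnc2: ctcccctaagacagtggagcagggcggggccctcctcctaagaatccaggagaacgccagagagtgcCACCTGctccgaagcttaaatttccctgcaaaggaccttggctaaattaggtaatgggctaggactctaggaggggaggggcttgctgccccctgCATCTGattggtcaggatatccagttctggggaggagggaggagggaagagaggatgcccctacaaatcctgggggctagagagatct
Acta1: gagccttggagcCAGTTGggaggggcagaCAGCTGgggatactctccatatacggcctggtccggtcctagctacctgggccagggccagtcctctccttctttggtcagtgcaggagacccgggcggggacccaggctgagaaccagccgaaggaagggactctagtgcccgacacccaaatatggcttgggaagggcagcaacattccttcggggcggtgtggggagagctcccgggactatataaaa
Windows of this kind were found for 32 of the 40 genes, 37 windows in all, because some genes have more than 1 start. Both strands were searched. An E-box was present in 31 of the 37 windows (83.8%), against 66.2% of all 32851 windows of the same length. The E-box with the centre spelled CAGCTG, a subset of the former, was present in 13 of 37 (35.1%) against 13.0%, and among the 4 genes shown it occurred in Mybpc1, Mylpf and Acta1. A CArG box, the element of serum response factor, was in 3 of 37 against 1.47%, in Acta1, Actc1 and Myl3. A match describes letters and is not a binding site.

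The targeted gene was read before any direction was taken from the labels. Nkx3-2, a homeodomain factor of gut and skeletal mesenchyme, read 7.73, 8.02 and 7.79 in knockout 1, 2 and 3, and 7.47, 7.75 and 7.99 in wildtype 1, 2 and 3 (log2 normalized intensity, as all values below unless stated). The labels overlapped, with a difference of 0.11 (knockout minus wildtype, SE 0.19, limma adjusted p = 1). The knockout label thus did not come with less of this transcript. The position of the probe with respect to the targeted stretch is unknown here, and a probe outside it checks nothing. Groups are therefore called by their labels.

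Markers of the labelled tissue were high on the arrays. The gastric surface genes Gkn1 and Gkn2 read at least 13.77, and the smooth muscle genes Actg2, Acta2 and Myh11 at least 13.15, on every array. Over the 10 smooth muscle markers the median difference was -0.05. Spots of batch A were brighter, with a median of 204 and 207 over local background, against 109 to 131 in batch B, and 13.2% to 16.7% of gene probes were near background. With 3 arrays a label, precision is limited throughout. In a tissue piece, fewer cells of a type and less RNA per cell cannot be told apart.

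Sarcomere transcripts differed widely from embryo to embryo, and the order of the arrays crossed the labels. Fast fibre genes such as Tnnc2 and Mylpf, the perinatal myosin Myh8 and the skeletal actin Acta1 were highest in wildtype 3 and lowest in knockout 2, while knockout 3 lay close to wildtype 2. Of the 35 tested members 29 had a mean below that of the wildtype label and 6 above it, where 51.9% of all tested genes lay below. No member passed limma's test (adjusted p under 0.05 in 0 of 35 members and in 0% of all genes), and 0 had an unadjusted p under 0.05, against 1.13% of all genes, or 0.257% counting only those lower under knockout. The 3 myogenic regulators differed between labels by -0.08 to 0.06.

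**Figure D1:**
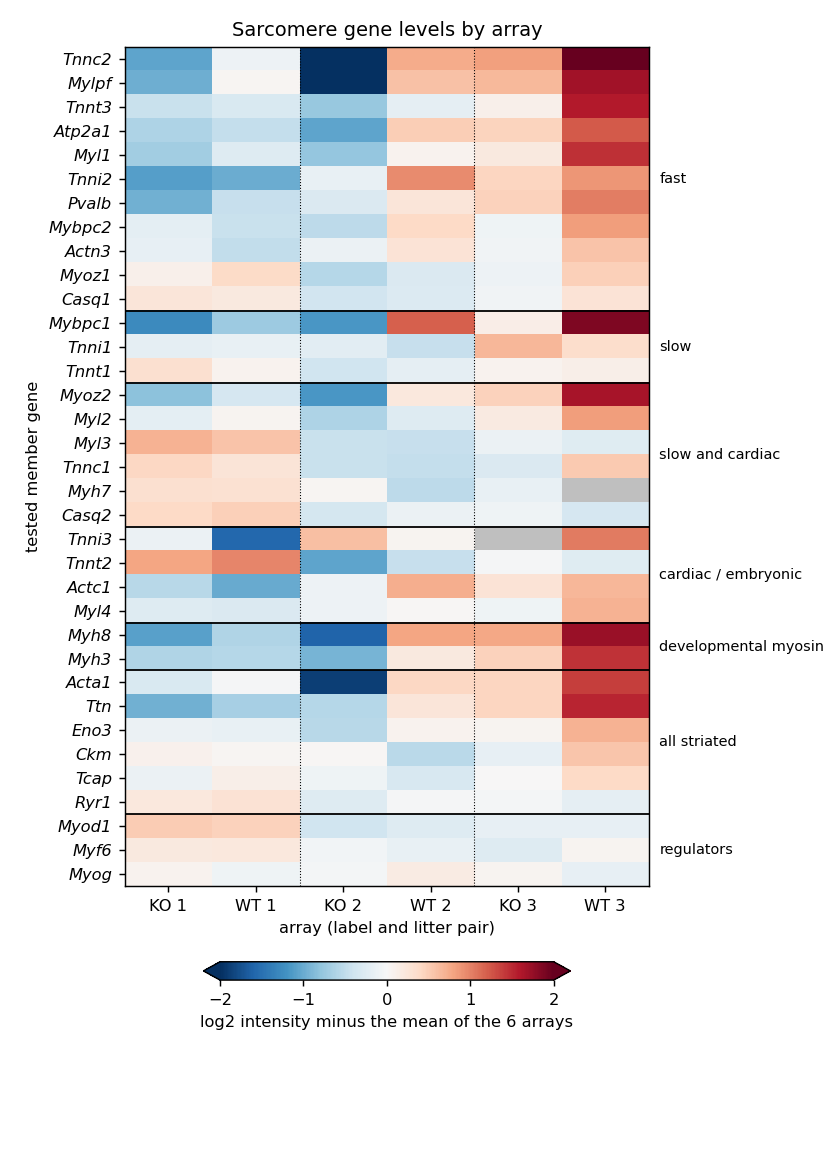
Each row is a tested member and each column an array, ordered by litter pair; colour gives the log2 normalized intensity minus the gene's mean over its arrays, and grey marks a spot set missing. Wildtype 3 is the darkest red column in the fast, developmental myosin and all-striated blocks, and knockout 2 is the bluest in the same blocks, while the regulators are paler.

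The spread over the 6 arrays was larger for these genes than for most. The highest and lowest array differed by more than 2 log2 units in 14 of the 35 members, against 2.35% of all genes, and by more than 1 in 24, against 24.1%. The median range was 1.37 in the members and 0.67 over all tested genes. Among the 33 members with a value on all arrays, wildtype 3 was the highest array in 22 (15.8% of all genes) and knockout 2 the lowest in 19 (15.2%), with both in 14 (1.61%). From lowest to highest, the mean rank over these members was 1.73 for knockout 2, 3.15 for knockout 1, 3.39 for wildtype 1, 3.48 for wildtype 2, 4.09 for knockout 3 and 5.15 for wildtype 3. In no member did all knockout arrays lie below all wildtype arrays, a pattern shown by 1.16% of genes. Knockout 3 exceeded wildtype 1 in 22 of 33 members and wildtype 2 in 21, and exceeded wildtype 3 in 7.

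The troponins of fast fibres included the member of widest spread. Tnnc2, the calcium-binding troponin C of fast fibres, read 8.21, 6.82 and 10.09 in knockout 1, 2 and 3, and 9.16, 9.9997 and 11.32 in wildtype 1, 2 and 3. Knockout 3 lay above wildtype 1 and 2, so the groups overlapped, although knockout was lower in each pair. The difference was -1.78 (SE 0.88, limma adjusted p = 1), made of -0.95, -3.18 and -1.23 in pairs 1, 2 and 3. On the authors' deposited linear values the highest Tnnc2 array, wildtype 3 at 15.9, was 34.7 times the lowest, knockout 2 at 0.458.

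Tnnt3, the fast troponin T that anchors the complex to tropomyosin, read 7.46, 7.16 and 8.01 under the knockout label and 7.61, 7.72 and 9.50 under the wildtype label. Wildtype 3 stood apart, and the differences within pairs were -0.15, -0.57 and -1.49. Tnni2, the fast inhibitory subunit, read 10.47, 11.43 and 12.01 against 10.58, 12.52 and 12.45. Here both arrays of pair 1 were the low ones, with -0.11 between them, and wildtype 2 rather than wildtype 3 was highest.

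The fast myosin light chains followed the pattern of Tnnc2. Mylpf, the phosphorylatable regulatory light chain, read 9.83, 8.81 and 11.45 under knockout and 10.84, 11.40 and 12.49 under wildtype. The pair differences were -1.01, -2.59 and -1.03, the mean difference was -1.54 (SE 0.71, limma adjusted p = 1), and knockout 3 was level with wildtype 2. Myl1, the essential light chain of fast fibres, read 6.74, 6.67 and 7.63 against 7.17, 7.50 and 8.90, again highest in wildtype 3, with a difference of -0.84 (SE 0.49). Myh1, an adult fast heavy chain, stayed near background on all but 1 array, at 5.86 to 6.15, and was not tested.

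Calcium uptake and buffering genes of fast fibres were also lower on the mean. Atp2a1, the calcium pump SERCA1, read 8.15, 7.72 and 9.21 under knockout and 8.29, 9.26 and 10.01 under wildtype, and the pair differences were -0.14, -1.54 and -0.80. Pvalb, the calcium buffer parvalbumin, was lower by -0.50, -0.54 and -0.56 in the pairs, while its level moved from 6.16 in knockout 1 to 8.15 in wildtype 3. For Pvalb 1 knockout array was near background. On the authors' deposited linear values Pvalb read 0.0902, 0.463 and 0.974 against 0.278, 0.805 and 1.51, and the pairs were less even. Casq1, the fast calsequestrin that stores calcium, ranged only from 7.59 to 8.25, with a difference of -0.14 (SE 0.23).

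Structural fast members closed the group. Mybpc2, the fast myosin-binding protein C, was higher in knockout 1 than in wildtype 1 by 0.24 and lower in pairs 2 and 3, by -0.93 and -0.92. Actn3, the fast alpha-actinin of the Z-disc, had the same signs, at 0.33, -0.39 and -0.65. Myoz1, a calcineurin-binding Z-disc protein, was lower in all pairs, at -0.29, -0.29 and -0.57. Neither the sign nor the size in pair 1 was therefore shared by all fast genes.

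Over the 11 tested fast members of 13, all 11 had a lower mean under the knockout label, where 51.9% of all tested genes lay below. Their differences ran from -1.78 to -0.14 with a median of -0.55, beside -0.01 over all tested genes. The median was -0.15 in pair 1, -0.84 in pair 2 and -0.80 in pair 3, and 8 of 11 were lower in every pair (11.6% of all genes). Wildtype 3 was highest in 10 of 11 (15.8% of all genes) and knockout 2 lowest in 8 (15.2%). Knockout 3 exceeded wildtype 1 in 9 of 11, wildtype 2 in 7 and wildtype 3 in 0. The median depended on single arrays: it was -0.25 without wildtype 3, -1.07 without wildtype 1 and -0.90 without knockout 3. It was -0.93 within batch B and -0.86 on the authors' normalized intensities.

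**Figure D2:**
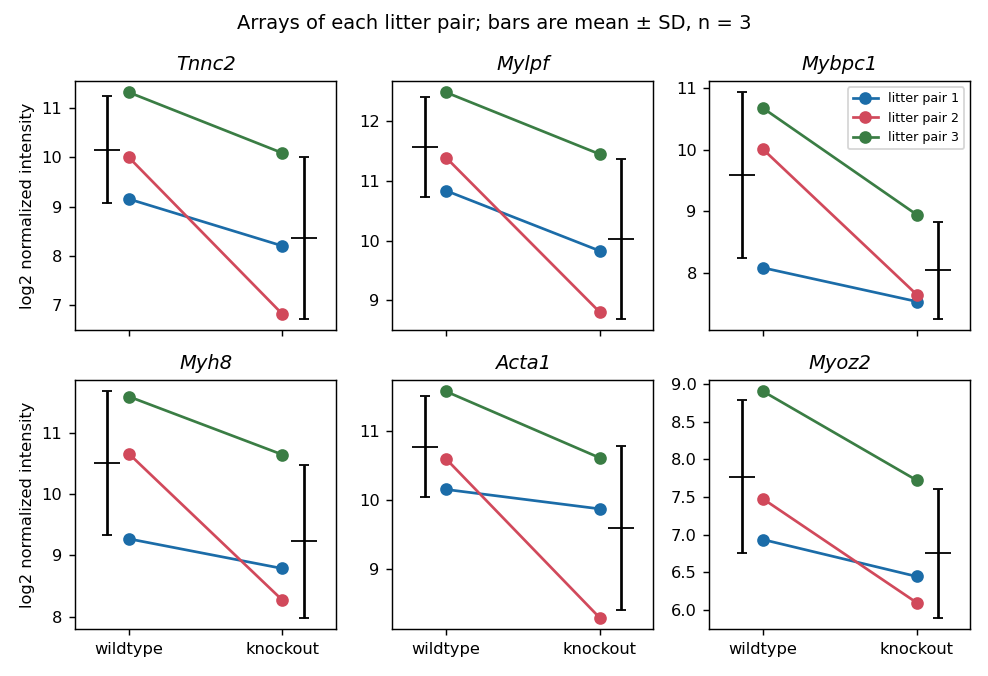
Log2 normalized intensity of 6 members in the 3 litter pairs, each line joining the wildtype and knockout array of a pair, with bars at the mean ± SD of each label (n = 3). Every line slopes down to knockout, pair 2 most steeply, and the knockout 3 point lies close to or above the wildtype points of pairs 1 and 2 in most panels.

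The developmental myosin heavy chains, which precede the adult chains in fetal fibres, shared the array order of the fast genes. Myh8, the perinatal chain, read 8.79, 8.27 and 10.65 under knockout and 9.27, 10.66 and 11.60 under wildtype. Knockout 3 was level with wildtype 2, and the pair differences were -0.48, -2.39 and -0.95. Myh3, the embryonic chain, read 7.10, 6.77 and 8.17 against 7.14, 7.90 and 9.14; in pair 1 the labels were level (-0.04), and in pairs 2 and 3 knockout was lower (-1.13 and -0.97). Both genes lie on chromosome 11, and both had wildtype 3 as highest and knockout 2 as lowest array. A further Myh8 probe stayed near background on every array.

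Slow fibre members did not share one direction. Mybpc1, the slow myosin-binding protein C, stood out, at 7.53, 7.64 and 8.94 under knockout and 8.08, 10.003 and 10.67 under wildtype. Knockout 3 lay above wildtype 1, so the groups overlapped. The difference was -1.54 (SE 0.70, limma adjusted p = 1), with -0.55, -2.36 and -1.73 in the pairs, and the other detected Mybpc1 probes gave -1.33 and -0.48. Tnni1, the slow inhibitory troponin, read 8.57, 8.54 and 9.41 against 8.60, 8.28 and 9.10, with knockout 3 highest. Tnnt1, the slow troponin T, lay between 9.07 and 9.79 on all arrays, and its difference was 0.01 (SE 0.22).

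Members used by both slow fibres and heart were also divided. Myoz2, a Z-disc protein that restrains calcineurin, read 6.44, 6.10 and 7.72 under knockout and 6.93, 7.47 and 8.90 under wildtype, with pair differences of -0.49, -1.38 and -1.18. Its order of arrays was that of the fast genes, and 1 knockout array was near background. Myl2, the slow and ventricular regulatory light chain, was lower in each pair by smaller amounts, at -0.25, -0.35 and -0.66, with 1 knockout array near background. Myl3, the essential light chain of the same fibres, was the 1 member higher in every pair, at 0.12, 0.02 and 0.13, and a dimmer Myl3 probe gave a mean difference of -0.09.

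The remaining slow and cardiac members were close to level. Tnnc1, the slow and cardiac troponin C, had differences of 0.15, 0.02 and -0.81 in the pairs and was near background on 3 arrays. Casq2, the cardiac calsequestrin, ranged from 5.94 to 6.77 and was likewise near background on 3. Myh7, the slow and ventricular heavy chain, gave 0.18 (SE 0.30) on 5 arrays, because the wildtype 3 spot was marked contaminated. It gave -0.06 if that spot was kept, and 1 wildtype array was near background. Of the 9 slow and slow-cardiac members 5 were lower and 4 higher, with a median of -0.02, beside -0.55 in the fast members. Only 4 of these 9 were clear of background on every array (median 0.05), against 10 of 11 fast members (median -0.64). Over the 8 with all values, mean centred levels were -0.08, -0.60 and 0.13 under knockout and 0.03, -0.07 and 0.59 under wildtype. As in the fast members, that list was lowest in knockout 2 and highest in wildtype 3.

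Among the cardiac and embryonic isoforms, Tnnt2 and Actc1 were split by batch. Tnnt2, the cardiac troponin T also made by fetal skeletal muscle, read 9.98, 8.13 and 9.16 under knockout and 10.17, 8.73 and 8.95 under wildtype, with both arrays of batch A highest. Actc1, the cardiac actin of heart and fetal skeletal muscle, read 11.92, 12.38 and 12.76 against 11.47, 13.22 and 13.16, with both arrays of batch A lowest. Myl4, the atrial and embryonic light chain, lay between 7.77 and 8.08 on 5 arrays and reached 8.75 in wildtype 3. The difference within batch A was -0.18 for Tnnt2, 0.45 for Actc1 and 0.03 for Myl4, and within batch B it was -0.19, -0.62 and -0.45.

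Tnni3, the inhibitory troponin of heart muscle, read 8.53 and 9.26 in knockout 1 and 2 and 7.08, 8.71 and 9.70 in wildtype 1, 2 and 3. The knockout 3 spot was marked irregular and left out of the fit, which gave 0.40 (SE 0.75), and its value of 7.50 would turn the difference to -0.06. The lowest array was wildtype 1, so the order was not that of the fast genes. Markers listed for heart muscle outside the members were divided, and Sln among them is not particular to heart. The atrial light chain Myl7 read 12.35 ± 0.41 against 12.45 ± 0.54 (SD, n = 3), the cardiac release channel Ryr2 7.04 against 7.05 on 2 arrays of each label, and the natriuretic peptide Nppb 6.32 against 6.27. Sln, sarcolipin, a regulator of the calcium pump, read 8.02, 7.55 and 8.67 against 8.25, 8.60 and 9.79. It was lower in every pair, highest in wildtype 3 and lowest in knockout 2, with a difference of -0.80 (SE 0.46, limma adjusted p = 1). Mybpc3, the cardiac myosin-binding protein C, read 6.43, 7.38 and 6.43 against 6.10 and 6.13 in wildtype 1 and 2, and was missing in wildtype 3.

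A group of members not assigned to a fibre type, labelled all striated in the figures, was lower in 6 of 6 tested cases. Over all tested genes 51.9% were lower. The group had a median of -0.27, but its genes differed among themselves. Ckm, Ryr1 and Tcap differed by less than their SE, at -0.04 (SE 0.28), -0.06 (SE 0.20) and -0.13 (SE 0.21). Acta1, the skeletal actin of the thin filament, read 9.86, 8.29 and 10.61 under knockout and 10.15, 10.59 and 11.57 under wildtype. Knockout 3 was level with wildtype 2, and the pair differences were -0.28, -2.30 and -0.96. Ttn, the giant spring protein titin, read 7.12, 7.52 and 8.51 against 7.41, 8.32 and 9.60 at the probe of highest signal. Its other detected probes gave differences between -0.35 and 0.11, so the Ttn probes did not share one pattern.

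Eno3, the muscle enolase of glycolysis, was level in pair 1 (0.03) and lower in pairs 2 and 3 (-0.62 and -0.65). Ckm, the muscle creatine kinase that buffers ATP, had mixed signs (0.05, 0.55 and -0.72), and so did Tcap, which caps titin at the Z-disc (-0.23, 0.23 and -0.39). Ryr1, the calcium release channel, ranged over 0.55 log2 units, less than the median gene on the array. Actn2 and Mybph, a Z-disc actinin and a relative of myosin-binding protein C, were below the filter.

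The regulators gave small differences between labels. Myog, which drives differentiation, lay between 6.13 and 6.45 with a difference of 0.06 (SE 0.15) and was near background on 3 arrays. Myf6, the late regulator, lay between 5.90 and 6.36 with -0.08 (SE 0.18), also near background on 3. Myod1, which commits cells to muscle, read 7.61 and 7.58 on the arrays of batch A and 6.72 to 6.95 on those of batch B, with differences of 0.04, -0.14 and 0.00 within pairs. The median range of the regulators was 0.46, beside 2.05 in the fast members and 0.67 over all genes.

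**Figure D3:**
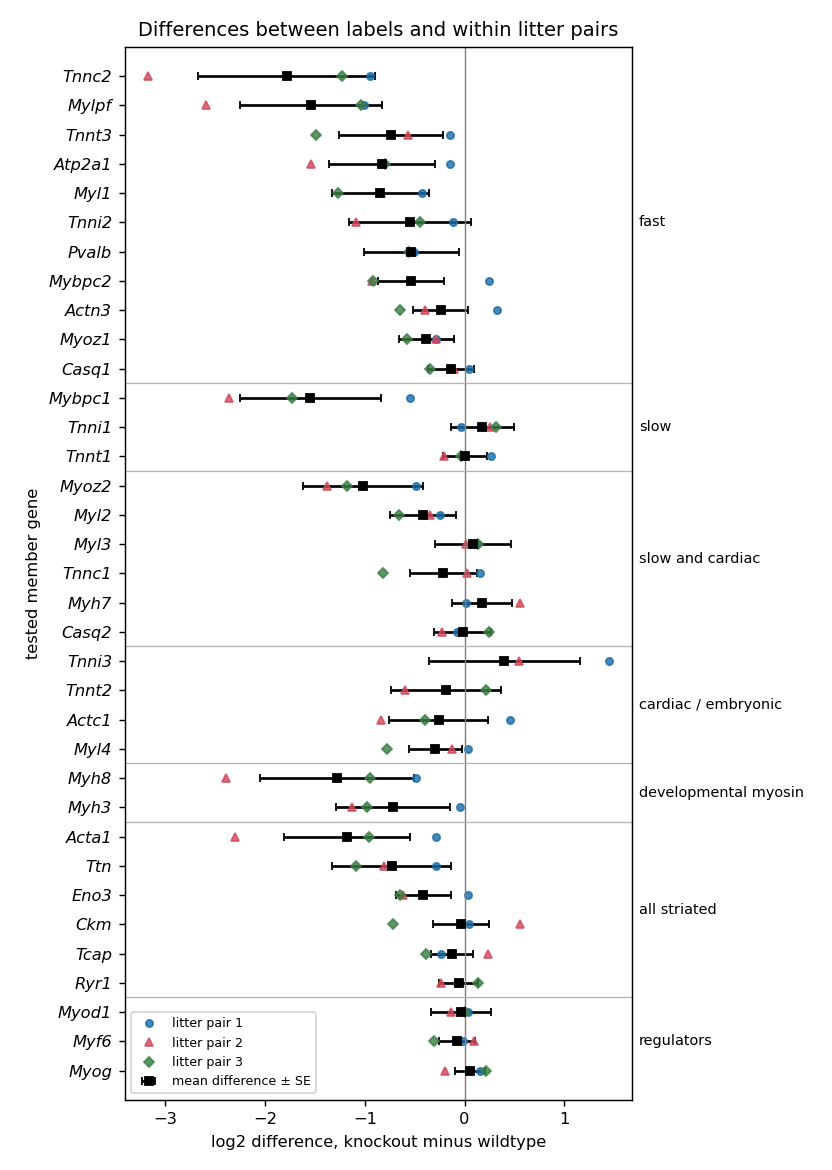
For each tested member, the black square gives the log2 difference, knockout minus wildtype, with its SE from limma, and the coloured points give the difference within each litter pair. Pair 2 lies farthest to the left in Tnnc2, Mylpf, Mybpc1, Myh8 and Acta1, and the points of the regulators stay between -0.31 and 0.22.

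Across litter pairs the size of the difference was uneven. The median over the members was -0.08 in pair 1, -0.40 in pair 2 and -0.65 in pair 3. In 15 of 33 members the knockout array was lower in every pair, against 11.6% of all genes, in 1 member (Myl3) it was higher in every pair, and in 7 it was higher in pair 1 and lower in pairs 2 and 3, against 19.4%. With the litter pair as a block in limma, 16 members had an unadjusted p under 0.05 (4.53% of all genes), 15 of them lower (1.79%) and 1, Tnni3, higher on its 2 complete pairs. After adjustment over all genes 0 of 35 members passed with the block (0% of all genes). The 8 fast members among these were Tnnt3, Tnnc2, Tnni2, Mylpf, Myl1, Myoz1, Atp2a1 and Pvalb.

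The median over the 35 members was -0.29 and depended on single arrays. It was -0.15 without wildtype 3, -0.51 without wildtype 1, -0.47 without wildtype 2 and -0.51 within batch B, where 29 of 34 members were lower. With the batch as a fixed block the median stayed at -0.29, and 2 of 35 members (5.71%) had an unadjusted p under 0.05 in limma, a share near that over all genes (5.83%). The count of lower members lay between 24 and 32 when arrays or pairs were left out.

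Striated muscle genes outside the list varied less, with a median range of 0.71, beside 1.37 in the members. Of 70 such genes 47 were tested, 34 lower and 13 higher, with a median of -0.10. These 70 were not limited to genes particular to striated muscle. They held Des, the tropomyosins Tpm1, Tpm2 and Tpm3, and Cox7a1, which was also taken here as a brown fat marker. The part of this choice of genes in the smaller spread was not tested. Limma called 0 (0 at an unadjusted p under 0.05, and 4 of 47 with the litter block, against 4.53% of all genes). The array order of the members was in part shared. Of the 43 with all values, wildtype 3 was highest in 19 (15.8% of all genes) and knockout 2 lowest in 12 (15.2%). Both held in 6 (1.61%). The 8 of largest absolute moderated t were Mybpc3, Trdn, Synpo2l, Mypn, Trim54, Xirp2, Art1 and Cox8b. Trdn, the triadin of the calcium release unit, differed by -0.45, and Synpo2l, an actin-associated Z-disc protein, by -0.52. Mybpc3 was not well above background on either wildtype array that measured it, and was at least 1.53-fold higher under knockout (limma adjusted p = 1), on a mean of 6.75 that knockout 2 raised. Cox8b, a cytochrome oxidase subunit of muscle and brown fat, read 7.62, 6.97 and 10.96 under knockout and 8.29, 10.81 and 10.22 under wildtype, and its highest array was knockout 3.

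Motor end plate genes, which fibres transcribe beneath the nerve ending, and progenitor genes did not as lists share the array order of the fast genes. The motor end plate list had 6 of 8 genes tested. Over the 4 with all values, mean centred levels ran from -0.09 to 0.08 under knockout and from -0.09 to 0.14 under wildtype. Of those 4, wildtype 3 was highest in 1, Chrnb1, and knockout 2 lowest in 2. Chrnd, missing in wildtype 2, was also highest in wildtype 3. The acetylcholine receptor subunit Chrna1 read 8.96 ± 0.15 against 8.98 ± 0.15 (SD, n = 3). The subunits Chrnb1, Chrnd and Chrne differed by -0.17, 0.04 and 0.12, and the kinase Musk and its activator Dok7 by -0.09 and -0.05. The muscle progenitor list, with 4 of 7 tested, lay between -0.11 and 0.03 under knockout and between -0.05 and 0.16 under wildtype. The precursor factor Pax3 differed by 0.05 and the fusion protein Mymk by -0.18. Myf5, an early regulator, read 6.91 ± 0.16 against 6.83 ± 0.04, and Cdh15, the cadherin of satellite cells, differed by -0.26 (SE 0.31).

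Adipocyte markers also differed widely between arrays. The adipocyte list, with 3 of 4 genes tested, had mean centred levels of -0.64, -1.05 and 0.85 in knockout 1, 2 and 3 and of -0.35, 0.88 and 0.31 in wildtype 1, 2 and 3. Adipoq, the adipocyte hormone adiponectin, read 6.88, 6.18 and 9.66 against 7.29, 9.79 and 8.97. Knockout 2 was the lowest array for both adipocyte and fast fibre genes. The highest arrays differed: wildtype 2 and knockout 3 for adipocyte genes, wildtype 3 for fast fibre genes. Ucp1, the uncoupling protein of brown fat, read 7.15, 6.11 and 11.62 against 8.41 and 11.40, with the wildtype 3 spot marked contaminated (10.67 if kept). Of the 5 brown fat markers, all tested, 3 were lower and 2 higher under knockout, with a median difference of -0.005. On the 4 with all values, Ucp1 not among them, mean centred levels were -0.19 to 0.31 under knockout and -0.07 to 0.11 under wildtype. The part of fat in the sarcomere differences was not tested.

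Markers of the stomach wall and of neighbouring tissue were uneven too. The pyloric and gastric wall list, with 12 of 12 genes tested, stood at -0.56, 0.08 and -0.08 under knockout and -0.27, 0.36 and 0.47 under wildtype, highest in wildtype 3. Of its genes 8 were lower and 4 higher under knockout, and 4 were lower in every pair (11.6% of all genes). These were the gland products Tff2 (-1.49), Muc6 (-1.54) and Gkn3 (-0.80) and the transcription factor Gata3 (-0.42). The squamous epithelium list, which marks the lining of forestomach and oesophagus, had 8 of 9 genes tested. Its mean centred levels were -0.14 to 0.01 under knockout and -0.11 to 0.16 under wildtype. Of its genes 5 were lower and 3 higher under knockout, with a median of -0.05. Those of highest signal, Lor, Krt4 and Krt6a, differed by 0.04, -0.07 and -0.04. The keratin Krt13 had the largest difference of the list (-0.51, SE 0.44) and was lower in every pair, as was Trp63 (-0.15, SE 0.21). The liver list, with 7 of 9 genes tested, stood at 2.27 in knockout 1 and between -0.81 and -0.15 on the other arrays. The exocrine pancreas list, with 6 of 8 tested, stood at 0.67 and 1.01 in batch A and between -0.47 and -0.38 in batch B. Neither liver nor pancreas had the array order of the fast members, whose mean centred levels were -0.53, -0.82 and 0.25 under knockout and -0.26, 0.27 and 1.10 under wildtype. Smooth muscle markers stayed between -0.25 and 0.21. The part of stomach wall, squamous, liver and pancreas tissue in the sarcomere differences was not tested.

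**Figure D4:**
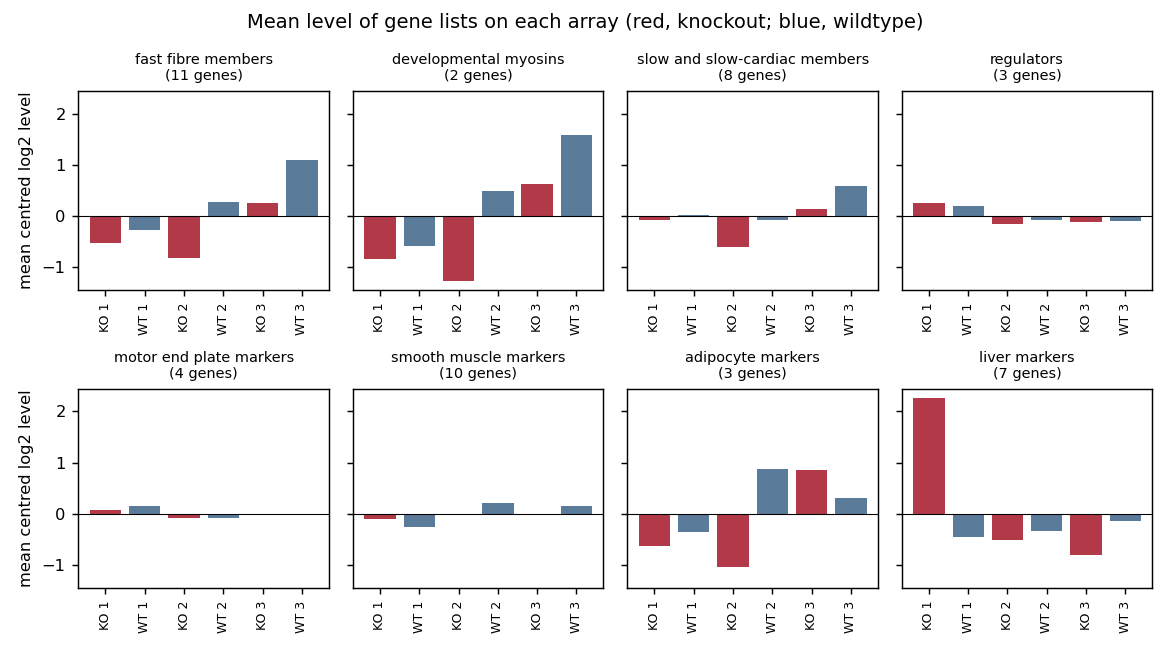
Mean centred log2 level of 8 gene lists on each array, ordered by litter pair, with knockout in red and wildtype in blue; a bar at 0 is the mean of the 6 arrays, and only genes with a value on all arrays are included. Fast members and developmental myosins run from knockout 2 to wildtype 3, adipocyte markers are highest in wildtype 2 and knockout 3, and the liver list stands out in knockout 1.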

How the data were processed

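Total RNA of 6 embryonic pylori (3 labelled knockout, 3 labelled wildtype) was hybridised to CodeLink mouse whole genome arrays. The deposited scanner files hold spot mean intensity and local background intensity, not normalized, per the file headers. The deposited per-sample and series values are intensity, median-normalized on a linear scale, per the file headers of pair 1. No genome build is given in the sources used here. Background was corrected by normexp in limma (offset 50), values of the 34967 gene probes were brought to common quantiles and log2 was taken, with control spots left out and spots marked masked, irregular or contaminated set missing (0.418% to 3.34% per array). A probe was tested if not near background on at least 3 arrays and with 2 values per label. The probe of highest mean signal stood for a gene. Probe symbols came from the platform annotation, updated through RefSeq gene tables, with 681 probes of several symbols and 12172 unnamed here left out of the naming.

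Labels were compared in limma 3.58.1 (R 4.3.3) by lmFit and eBayes, with no block. The p-values were adjusted by Benjamini-Hochberg over 16764 genes at 0.05. The procedure was also run on simulated data with independent errors. Those data held no litter or batch structure, so they cannot show how the test performs where arrays share it. The pairing by litter was taken from the animal codes. Deviations of paired arrays from their label means correlated at 0.784, 0.409 and 0.576 in pairs 1, 2 and 3, across 15667 genes. Arrays of different pairs within batch B gave 0.536 and 0.636. These correlations therefore cannot decide the pairing, which rests on the animal codes alone. Mean centred levels are the mean, over the genes of a list with all values, of log2 intensity minus the gene's mean.

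The members and gene lists were chosen with earlier results of these data known, so no list was given a p-value. Genes named were Nkx3-2, all members with a probe and the 8 other striated muscle genes of largest absolute moderated t. The heart, progenitor and end plate markers with a probe were also named. Des, Tpm1, Tpm2, Tpm3 and Cox7a1 were named to describe the list of other striated muscle genes. Of the tissue markers, some of high mean signal were named. Tff2, Muc6, Gata3, Krt13 and Trp63 were named as lower in every pair, whatever their signal. The tissue markers Mylk, Lmod1 and Cela2a were also lower in every pair and were not described.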

Additional observations from a re-analysis of the deposited data

How the results depend on the processing

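In limma 0 of 16764 genes and 0 members passed in each alternative tried, except that default array weights called 677 genes and 3 members, Mybpc1 (-1.93), Mybpc2 (-0.95) and Actn3 (-0.60). Those weights ran from 0.166 for wildtype 1 to 6.96 for wildtype 3, their estimation did not converge, and gene by gene weights called 0 genes. At an unadjusted p under 0.05, where the reported fit had 0 members, there were 23 of 35 with default weights (22.8% of all genes), 16 of 35 with the litter pair as replicate block (4.53%), 12 of 35 without wildtype 1 (6.64%), 7 of 35 without knockout 3 (0.572%), 6 of 35 with gene by gene weights (10.5%), 5 of 34 within batch B (12%), 4 of 35 without pair 3 (0.153%) and at most 2 elsewhere. The replicate block left every median in place (members -0.29, fast -0.55, slow and slow-cardiac -0.02) except that of the other striated muscle genes, which became -0.11, and it changed no adjusted call. With arrays or pairs left out, the median over members lay between -0.51 and -0.15, that of fast members between -1.07 and -0.25, that of slow and slow-cardiac members between -0.24 and 0.15, and that of other striated muscle genes between -0.15 and -0.01. Default and gene by gene weights gave -0.60 and -0.51 over members, and -0.95 and -0.86 over fast members. The number of members lower under knockout, an alternative count chosen after seeing the data, was 29 of 35 in the reported fit and lay between 24 of 34 without knockout 2 (70.6%) and 32 of 35 without wildtype 2 (91.4%).

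Differences of 16 members, from -0.26 for Actc1 to 0.40 for Tnni3 and none past the test, changed sign in 59 of 756 recomputed values, and the cause was not tested. Without 1 array at a time, Actc1 lay between -0.83 and 0.042, Casq1 between -0.31 and 0.023, Casq2 between -0.22 and 0.22, Ckm between -0.32 and 0.23, Myf6 between -0.19 and 0.034, Myh7 between -0.050 and 0.29, Myl3 between -0.24 and 0.40, Myod1 between -0.29 and 0.19, Myog between -0.0083 and 0.18, Ryr1 between -0.18 and 0.070, Tcap between -0.32 and 0.039, Tnni1 between -0.11 and 0.40, Tnni3 between -0.31 and 1.00, Tnnt1 between -0.16 and 0.20 and Tnnt2 between -0.64 and 0.29. Without litter pair 1, equal to batch B alone, Casq2 was 0.010 and Tnnt1 -0.12. Without pair 2, Actc1 was 0.030, Casq2 0.084, Myh7 -0.059, Myod1 0.020, Ryr1 0.027 and Tnnt2 0.015. Without pair 3, Ckm was 0.30, Myf6 0.042, Myog -0.021, Tcap 0.00027 and Tnnc1 0.088. With default array weights, Casq2 was 0.17, Ryr1 0.069, Tnni3 -0.38, Tnnt1 -0.093 and Tnnt2 0.026, and with gene by gene weights Casq2 was 0.070, Tnni3 -0.056 and Tnnt1 -0.071. Ckm was 0.010 under median scaling, 0.0091 on the authors' normalized intensities and 0.0094 on the deposited series values. Averaging probes gave -0.0012 for Myl3 and 0.028 for Ryr1, and keeping the marked spots gave -0.063 for Myh7 and -0.064 for Tnni3. A random batch block was not run, since each batch held both labels. Of the tested members 9 were near background on at least 1 array, where signal limits the values.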
